A study of Mus musculus with 24 samples.

Results

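In the kidney of an F1 hybrid mouse, 77 genes gave at least 0.9 of their allele-specific reads to the maternal column of the count tables. Allelic imbalance (AI) is the share of the reads over strain-specific SNPs that were counted for that column, so an AI of 0.5 means equal reads from both parental genomes and an AI of 1 means reads from the maternal column alone. The study's methods place the genome of 129S1 in the maternal column and that of Cast/Ei in the paternal column. The 77 genes were chosen on measured values: AI, pooled over the 6 libraries of a group, had to reach 0.9 in each of the 3 kidney groups, with 100 or more pooled counts in each. Of 37315 genes in the tables, 10086 had that many counts, and 90 of these (0.892%) reached the AI. The rule then left out 13 genes by symbol: ribosomal protein, histocompatibility and cytochrome P450 genes, and the imprinted genes Peg3, Sgce, Plagl1, Impact and Zrsr1. Because the kidney AIs chose the genes, they are given below as a description without a test. On the opposite side, 92 genes had an AI of at most 0.1 in all 3 groups.

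All kidney libraries were aliquots of total RNA from the left kidney of an adult female of the cross 129S1/SvImJ x CAST/EiJ, labelled control for drug treatment. They comprised 6 NEBNext libraries from 100 ng of RNA (NEBNext100ng), 6 SMARTseq libraries from 10 ng (SMARTseq10ng) and 6 SMARTseq libraries from 100 pg (SMARTseq100pg). The libraries of a group were therefore technical replicates of 1 animal, and every p-value below measures the spread between libraries. Abl.1 and Abl.2 are immortalised B cell lines of the same F1 background, also labelled female and control, each grown from 1 clone, with 2 SMARTseq libraries from 10 ng each, and the Abl.2 libraries were sequenced a second time. Library totals lay between 6138693 and 6702351 allelic counts in kidney and between 19213150 and 22410835 in the Abl lines. Of these counts 0.261% to 0.35% in kidney and 0.458% to 0.677% in Abl fell on the 77 genes. The proximal tubule phosphate transporter Slc34a1 had 6268 to 9954 CPM (allelic counts scaled to a library total of 1000000) in the kidney groups and at most 3.45 in the Abl lines, and the B cell receptor component Cd79a had at most 0.315 and at least 530.5, respectively.

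In an F1 hybrid both parental genomes share the same nucleus, so a lasting difference between the alleles of a gene is usually sought in cis, in sequence differences near the gene or in parental imprinting, which silences the copy inherited from the mother or from the father. A processed pseudogene is a copy of a messenger RNA that was written back into the genome without introns, and it can stay nearly identical to the gene it came from. Allele-specific counting rests on a few SNPs per gene, so for genes with such near-identical copies the reads of a copy and of its parent may be divided wrongly, and their values are uncertain.

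The direction of the maternal column was looked up in 17 imprinted genes with enough kidney counts. Of 9 paternally expressed genes, Peg3, Sgce, Plagl1, Impact, Zrsr1 and Mcts2 had pooled kidney AIs between 0.953 and 1.0 in the 3 groups. Inpp5f and Slc38a4 ranged from 0.390 to 0.557, and Airn went the other way at 0.188 to 0.240. Of 8 maternally expressed genes, Cdkn1c had AIs of 0.0024, 0.015 and 0.006 and Igf2r of 0.122, 0.143 and 0.235, while the other 6 lay between 0.444 and 0.627. In the Abl lines Impact stood at 0.059 and 0.0, and Zrsr1 at 0.0 and 0.127. Cdkn1c stood at 1.0 in both clones, over only 6 and 16 counts, and Mcts2 at 0.667 and 0.844 over 33 and 45 counts. Ube3a, on the list of maternally expressed genes, stood at 0.0083 in Abl.1 and 0.526 in Abl.2. Impact, Zrsr1 and, over few counts, Cdkn1c thus read opposite ways in the kidney and Abl tables. A high AI below is a statement about the column, not about inheritance from the mother.

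By annotation 19 of the genes were pseudogenes, and 3 of them are shown here beside the coding gene whose transcript they match best. Within the window printed, the reference transcripts of a pair differ only at the capital letters. Differences outside the window and the strain SNPs used for counting are not shown. The windows are 120 bases of the GRCm38 reference transcripts (GENCODE M21), written 5′ to 3′, placed over the coding stretch of the parent with the most differences. Atp6v0c-ps2 lies at chr6:37806086-37806550 on the plus strand and matches Atp6v0c, the proteolipid of the vacuolar proton pump at chr17:24163866-24169702 on the minus strand, over 465 bases at 99.78% identity.
Atp6v0c-ps2: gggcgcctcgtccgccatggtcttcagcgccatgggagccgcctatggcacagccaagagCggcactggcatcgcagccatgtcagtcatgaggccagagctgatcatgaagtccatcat
Atp6v0c: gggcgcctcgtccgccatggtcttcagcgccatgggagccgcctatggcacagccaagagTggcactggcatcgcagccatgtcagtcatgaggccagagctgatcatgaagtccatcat
Gm7666 lies at chr15:6653923-6654741 on the plus strand and matches Phb, the mitochondrial scaffold protein prohibitin at chr11:95666957-95680773 on the plus strand, over 819 bases at 99.88% identity.
Gm7666: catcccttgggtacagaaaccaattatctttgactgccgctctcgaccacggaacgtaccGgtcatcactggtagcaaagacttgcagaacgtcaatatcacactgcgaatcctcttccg
Phb: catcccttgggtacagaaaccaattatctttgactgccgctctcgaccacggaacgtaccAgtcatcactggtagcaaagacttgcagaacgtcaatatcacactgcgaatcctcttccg
Gm2710 lies at chr1:172669034-172669636 on the minus strand and matches Hmgb1, a DNA-bending chromatin protein at chr5:149046702-149184489 on the minus strand, over 603 bases at 97.35% identity, with 3 differences in the window.
Gm2710: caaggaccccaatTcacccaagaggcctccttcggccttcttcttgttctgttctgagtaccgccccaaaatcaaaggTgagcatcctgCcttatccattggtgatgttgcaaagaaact
Hmgb1: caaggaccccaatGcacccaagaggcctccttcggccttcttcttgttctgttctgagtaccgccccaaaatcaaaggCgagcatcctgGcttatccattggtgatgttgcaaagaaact

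These pairs had unlike kidney AIs. As the mean of the 3 pooled AIs, Atp6v0c-ps2 stood at 0.98 and Atp6v0c at 0.208. Gm7666 stood at 0.997 and Phb at 0.370. Gm2710 stood at 0.991 and Hmgb1 at 0.552. The copy was thus near 1 in each pair, while the parents spread from 0.208 to 0.552. In the Abl lines the pseudogenes were again near 1 and the 3 parents lay between 0.431 and 0.603: Atp6v0c had AIs of 0.502 in Abl.1 and 0.489 in Abl.2. Across 12 processed pseudogenes that matched a coding gene with kidney counts, ribosomal protein genes left out, over at least 50% of their length, the matched gene's kidney AI ran from 0.203 to 0.987. The highest of these was Eno1b, itself 1 of the 77 genes and the best match of Gm4735, which stood at 0.983. Eno1b is in turn 99.46% identical to Eno1, which had pooled kidney AIs of 0.381 to 0.433. Which of them Gm4735 was copied from was not tested. Got2, the mitochondrial aspartate aminotransferase, had the next highest at 0.759, beside 0.997 for Got2-ps1.

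**Figure D1:**
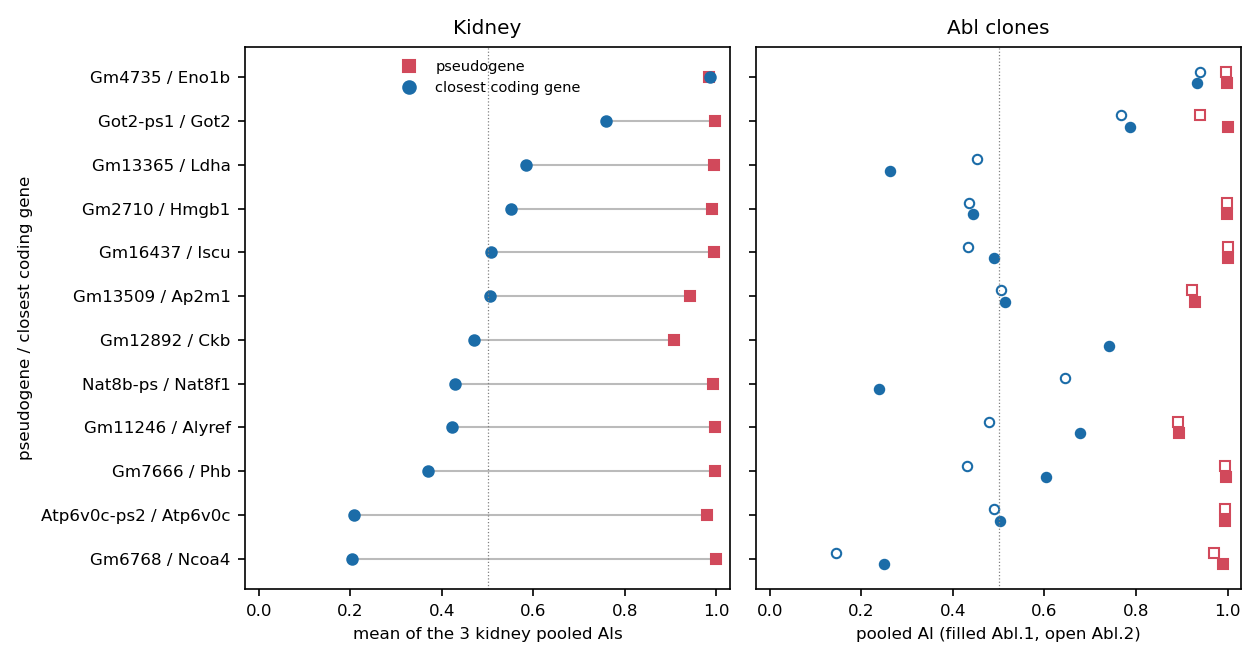
AI of 12 processed pseudogenes (squares) and of their closest coding genes (circles), as the mean of the 3 pooled kidney AIs (left) and as pooled AI in Abl.1 (filled) and Abl.2 (open, right; groups with enough counts only). The dotted line marks an AI of 0.5. In kidney the pseudogenes, chosen for an AI of at least 0.9, sit between 0.906 and 0.998, and the coding genes between 0.203 and 0.987.

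Near-identical copies were frequent among the 77 genes. A match to at least 1 other gene over 200 or more bases at 95% identity or higher was found for 31 of the 73 genes with a GENCODE transcript (42.47%), against 1275 of 10031 genes (12.71%) with enough kidney counts. Among protein-coding genes alone the counts were 16 of 42 (38.1%) and 1183 of 9745 (12.14%). For several coding genes the best match was a processed pseudogene: Gm3531 for Btf3, Oaz1-ps for Oaz1, Gm5616 for Snu13, Gm8394 for Psma5, Gm12854 for S100a11, Gm17383 for Tuba1b, Gm11223 for Stmn1, Gm6969 for Cox7a2l and Gm9144 for Nfyc.

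By annotation, 42 of the 77 genes were protein coding (54.5%, against 96.6% of the 10086 genes with enough counts). Pseudogenes made up 19 (24.7% against 1.10%), of which 16 were processed. Long noncoding genes, that is antisense, lincRNA and processed transcripts, made up 12 (15.6% against 1.62%), and 4 genes had no symbol. Provisional names such as Gm, Rik and ps symbols were carried by 32 (41.6% against 4.16%). None was among the markers of proximal tubule, thick ascending limb, collecting duct, glomerulus or B lineage looked at. These lists held only 24, 13, 13, 12 and 4 of the 10086 genes (0.238%, 0.129%, 0.129%, 0.119% and 0.04%), too few for this to describe the 77. The list of transport genes gave 4 (5.2% against 3.6%). They were the organic anion transporters Slc22a22 and Slc22a19, the inward rectifier potassium channel Kcnj12 and the pseudogene Atp6v0c-ps2. The list of proteases and inhibitors gave Tmprss4, Klk1b22 and Serpina1b (3.9% against 0.674%). That of detoxification enzymes gave the aldo-keto reductase Akr1c20, the acetyltransferase family gene Nat8f6 and its relative Nat8b-ps (3.9% against 1.21%).

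The genes were scattered over 18 autosomes, and most of their neighbours had balanced alleles, as did most genes. Of 144 nearest neighbours with a kidney value, 123 had a mean AI from 0.3 to 0.7 (85.4%, against 91.7% of all genes with enough counts), and the median neighbour stood at 0.501. Both neighbours were in that range for 53 of the 73 genes with a position. Only 2 pairs of these genes lay within 500 kb of each other. Nat8f6 and Nat8b-ps, relatives in the same acetyltransferase cluster on chromosome 6, were 111727 bases apart, and Slc22a19 and the Iscu copy Gm16437 on chromosome 19 were 4268 bases apart. Havcr1 (chr11:46735080-46779578) had a neighbour of the same receptor family, Timd2, with a mean AI of 0.269. Serpina1b (chr12:103728156-103830373) stood next to Serpina1f at 0.486 and Serpina3b at 0.0007. Other neighbouring relatives were high: Akr1c12 at 0.882 and Akr1c21 at 0.862 beside Akr1c20, Tuba1a at 0.877 beside Tuba1b, and Slc22a26 at 0.772 beside Slc22a19. Nat8f6 lay between Nat8f3 at 0.844 and Nat8 at 0.380. Balanced relatives were Klk1b5 at 0.560 beside Klk1b22, S100a10 at 0.564 beside S100a11 and Mfap1a at 0.517 beside Mfap1b. Rnase4 overlaps Ang, with which it shares its promoter and first exons, and Mcts2 lies inside H13. Ang had pooled kidney AIs of 0.889 to 0.938. Exon stretches that several genes share were left out of the authors' counting.

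Over the 77 genes the median pooled kidney AI was 0.981 in NEBNext100ng, 0.981 in SMARTseq10ng and 0.983 in SMARTseq100pg. In 49 of them every one of the 18 libraries was at or above 0.9, and 20 had AIs of at least 0.99 in all groups. The lowest single library of any of the 77 stood at 0.571 in NEBNext100ng, 0.75 in SMARTseq10ng and 0.25 in SMARTseq100pg. No paternal count at all was seen for Bglap3, a relative of the bone protein osteocalcin (0 of 773 counts, which allows up to 0.388%), or for the unnamed gene ENSMUSG00000095454 (0 of 2106, up to 0.142%). These limits and the intervals below cover counting error only. Closest to the threshold inside were Pla2g7 with a smallest pooled AI of 0.901, Psma5 with 0.903 and Gm12892 with 0.904, and outside were Hpgd with 0.8999, Hspe1 with 0.899 and St3gal5 with 0.898. Pooled counts at this edge were small for some: Pla2g7 had 301, 523 and 544 counts in the 3 groups, and its 95% Wilson interval in SMARTseq100pg was 0.873 to 0.923.

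Among secreted and surface proteins with high kidney counts, Havcr1, the injury marker known as KIM-1, ranged from 0.979 over a median of 0.994 to 0.998 in NEBNext100ng. It ranged from 0.991 over 0.996 to 0.998 in SMARTseq10ng and from 0.992 over 0.999 to 1.0 in SMARTseq100pg, with 8376 to 10165 pooled counts per group. Ttr, the thyroid hormone carrier transthyretin, was at 0.965 or above in all 18 libraries, with group medians of 0.995, 0.998 and 0.999. No library of either gene came under 0.965. Habp2, a hyaluronan-binding serine protease of plasma, had lower medians of 0.954, 0.955 and 0.961, with single libraries between 0.932 and 0.981. Klk1b22, a glandular kallikrein, had a lowest NEBNext100ng library of 0.977 and a median of 0.981, while SMARTseq10ng ran from 0.896 over 0.916 to 0.961 and SMARTseq100pg from 0.824 over 0.937 to 0.972. The NEBNext100ng libraries of Klk1b22 thus lay above all those of the other groups.

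Rnase4, a secreted ribonuclease and the gene with the highest level of the 77, had libraries from 0.879 over 0.927 to 0.953 in NEBNext100ng, from 0.943 over 0.956 to 0.963 in SMARTseq10ng and from 0.941 over 0.955 to 0.971 in SMARTseq100pg. Its pooled AI was 0.916 (95% Wilson interval 0.909 to 0.922) in NEBNext100ng and 0.955 (0.951 to 0.958) in SMARTseq10ng. S100a11, a calcium-binding protein, was also lowest in NEBNext100ng, with medians of 0.922, 0.936 and 0.942 and overlapping ranges. Serpina1b, an alpha-1 antitrypsin with 5 near-identical relatives, ranged from 0.843 over 0.969 to 0.991 in NEBNext100ng. In bulk RNA fewer cells of a type and less RNA per cell cannot be told apart, so these counts do not say which kidney cells the reads came from.

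Of the transporters, Slc22a22, which carries prostaglandins, had group medians of 0.975, 0.982 and 0.991, and no library under 0.954. Slc22a19 (chr19:7673061-7711310) had medians of 0.964, 0.948 and 0.968, and its lowest library stood at 0.920. Its neighbour Gm16437 was higher, at medians of 1.0, 0.994 and 0.995. Both members of the chromosome 6 pair were high as well: Nat8b-ps had medians of 1.0, 0.992 and 0.996. Nat8f6 had medians of 0.954, 0.934 and 0.926, with a range from 0.815 to 1.0 in SMARTseq100pg, where it had 180 pooled counts.

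Cox7a2l, an assembly factor of respiratory chain supercomplexes (chr17:83501918-83517330), had medians of 0.991, 0.987 and 0.986 and no library under 0.98. Btf3, a subunit of the complex that binds nascent proteins at the ribosome (chr13:98309896-98317006), had medians of 1.0, 0.985 and 0.982, and its lowest NEBNext100ng library, at 0.997, lay above all libraries of the other groups. Oaz1, the antizyme that limits polyamine synthesis (chr10:80826656-80829290), had medians of 0.931, 0.965 and 0.961. Psma5, an alpha subunit of the proteasome core (chr3:108256926-108279974), had medians of 0.944, 0.905 and 0.902 with single libraries from 0.864 to 0.989. Cd63-ps had no overlap between NEBNext100ng and the other groups, with NEBNext100ng from 0.977 over 0.985 to 0.986, SMARTseq10ng from 0.925 over 0.929 to 0.940 and SMARTseq100pg from 0.903 over 0.920 to 0.926. Gm10260, a coding gene model 99.08% identical to Rps18 of the small ribosomal subunit, had medians of 0.932, 0.955 and 0.957, beside pooled AIs of 0.454, 0.490 and 0.503 for Rps18. The enolase gene Eno1b had medians of 0.984, 0.994 and 0.987, and the antisense gene BC018473 of 0.998, 0.998 and 1.0. The counting is not stated to use strand, and exon stretches shared with another annotated gene were left out of it, so for the antisense genes reads of the opposite strand could enter only outside such stretches. Mcts2, the imprinted gene on the list (chr2:152687035-152687946), had medians of 0.968, 1.0 and 1.0 with 193 to 408 pooled counts per group.

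**Figure D2:**
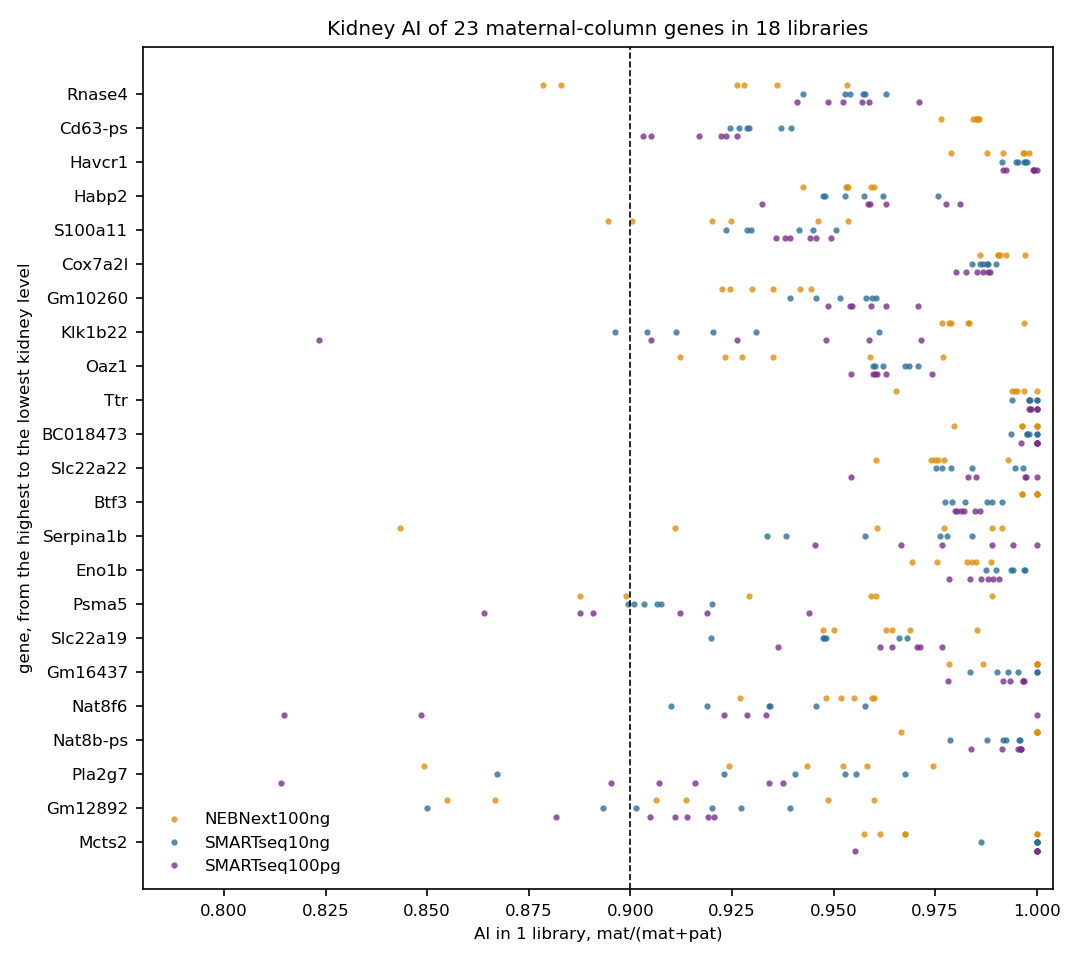
Kidney AI in each of 18 libraries for 23 of the genes, ordered from the highest to the lowest kidney level, with 1 point per library coloured by group. The dashed line marks 0.9. The Havcr1, Ttr and BC018473 points crowd near 1, while Pla2g7, Psma5, Gm12892, Klk1b22, Rnase4, Serpina1b and Nat8f6 are among the genes with single libraries below the line.

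The Abl lines show whether the same column was high in another cell type of the same cross. Of the 77 genes 25 had no count in the 4 first-run Abl libraries, 5 had 1 to 9 counts and 10 had more but missed the minimum of 10 counts in each library. The other 37 were tested (48.1%, against 75.5% of the genes with enough kidney counts). No Abl count was seen for 14 coding genes: Slc22a22, Slc22a19, Habp2, Npy, Vstm5, Havcr1, Nccrp1, Akr1c20, Klk1b22, Ttr, Wfdc16, Serpina1b, Lrrc31 and Nat8f6. This set holds most of the transport, secreted and detoxification genes described above, so their AI is known here from kidney alone. The 10 with too few counts went different ways. In Abl.1 Arntl2, Mogat2 and Bpnt1 had an AI of 1.0 over 19, 22 and 12 counts. Nat8b-ps had 0.9615 there over 26 counts, Bglap3 0.9153 over 59 and Gm12892 0.8261 over 23. Gm13365 had 0.5 over 10 counts and 2610035D17Rik 0.2195 over 41. Mylk3 had 0.0 in Abl.1 and Abl.2 over 4 and 6 counts. Gm11827 stood at 0.556 in Abl.1 over 108 counts and at 1.0 in Abl.2 over 18.

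Most tested genes were read from the maternal column in Abl too. The maternal column was higher than the paternal in 27 of 37 genes in Abl.1 (edgeR's quasi-likelihood test, Benjamini-Hochberg adjusted p under 0.05), while 18.7% of 9789 genes tested were called that way. In Abl.2 the count was 28 of 37, against 20.5%. In both clones the maternal column was called higher in 26 genes, against 9.46% of all genes. The paternal column was called higher in 2 genes in Abl.1 (17% of all genes) and in 3 in Abl.2 (18.2%). The last share rested on both Abl.2 libraries, being 10.6% without replicate 1 and 10.2% without replicate 2. The median pooled AI of the 37 was 0.903 in Abl.1 and 0.939 in Abl.2, and that of all tested genes was 0.503 in both.

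Of the 37 tested genes 19 had a pooled AI of 0.9 or more in both clones, against 1.9% of all genes tested. In Abl.1 alone 20 reached it (3.61%) and in Abl.2 alone 21 (9.78%). Pseudogenes were the most frequent class among the 19: 9 of the 12 tested were at or above 0.9 in both clones, against 6 of 19 coding genes and 3 of 4 long noncoding genes. The balanced range from 0.3 to 0.7 in both clones held 6 of the 37, against 68.6% of all genes, and these were Btf3, Hist1h4i, Mcm10, Oaz1, Psma5 and Snu13.

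Among the 6 coding genes that stayed high, Nfatc3, a calcineurin-regulated transcription factor (chr8:106058840-106130537), had AIs of 0.999 and 0.998 in the Abl.1 libraries and 0.999 and 0.999 in those of Abl.2. Its log2 ratio of maternal to paternal counts was 8.82 (edgeR adjusted p = 3.01e-07) in Abl.1 and 9.79 (adjusted p = 2.68e-08) in Abl.2. These ratios rest on 1 and 3 paternal counts in the Abl.1 libraries and 2 and 4 in those of Abl.2, so their size is imprecise. Cox7a2l had 0.949 and 0.920 in Abl.1 and 0.937 and 0.940 in Abl.2, a little under its kidney values. Its log2 ratios were 3.86 ± 0.15 (edgeR adjusted p = 2.07e-06) and 3.94 ± 0.15 (adjusted p = 5.80e-07), so the clones overlapped. Here and below ± is an approximate SE, the log2 value divided by the square root of the test's F statistic. Eno1b had 0.935 and 0.933 in Abl.1 and 0.947 and 0.936 in Abl.2, although its level was 544.0 CPM in Abl.1 and 67.1 in Abl.2. The related enolase gene Eno1, 99.46% identical to Eno1b, had pooled AIs of 0.546 and 0.999 in the clones, and of 0.381 to 0.433 in kidney. Gm10260 had 0.976 and 0.978 in Abl.1 and 0.976 and 0.976 in Abl.2, beside 0.512 and 0.511 for Rps18. Mfap1b, a copy of the spliceosomal gene Mfap1a, also stayed high, at pooled AIs of 0.991 and 0.967, with 108 and 181 counts.

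The pseudogenes held their AI at very different levels. Gm15427 had AIs of 0.993 and 0.991 in Abl.1 and 0.993 and 0.991 in Abl.2, at 161.3 and 159.4 CPM against 7.34 in kidney. Gm4735 had 0.998 and 0.999 in Abl.1 and 0.999 and 0.993 in Abl.2, at 712.2 and 37.8 CPM. Gm2710 had 0.999 and 1.0 in Abl.1 and 0.999 and 0.999 in Abl.2, with Hmgb1 at 0.443 and 0.434. All 3 were called for the maternal column in both clones, with adjusted p from 1.74e-08 to 1.54e-06. Gm16437 had no paternal count in the first-run Abl libraries (0 of 180 in Abl.1, which allows up to 1.67%, and 0 of 121 in Abl.2, up to 2.48%), and 3 of 185 counts were paternal in the second run of Abl.2. Got2-ps1 had 40 and 33 counts and pooled AIs of 1.0 and 0.939, the smallest depth among the 9. The remaining 3 tested pseudogenes stood lower: Gm11246, a copy of the mRNA export factor Alyref, at 0.895 and 0.891, Pisd-ps2 at 0.817 and 0.786, and Gm4535 at 0.839 and 0.786. Of the long noncoding genes, BC018473 had 0.999 and 0.998 in Abl.1 and 0.998 and 0.999 in Abl.2 at about its kidney depth or more, 153.5 and 149.9 CPM.

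Tuba1b, an alpha-tubulin (chr15:98931425-98934565), was intermediate and alike in all libraries. Its AIs were 0.754 and 0.725 in Abl.1 and 0.747 and 0.733 in Abl.2, under its smallest kidney pooled AI of 0.988. Its log2 ratios were 1.51 ± 0.06 in both clones (adjusted p = 2.08e-06 and 6.90e-07). The 98.67% identical pseudogene Gm17383 had AIs of 0.035 and 0.025 in the clones over 1344 and 598 counts, while it had at most 3 counts in any kidney group.

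The 6 genes that were balanced in Abl were, like all 77, at 0.9 or above in kidney by the rule. Btf3 had AIs of 0.492 and 0.502 in Abl.1 and 0.506 and 0.510 in Abl.2, with log2 ratios of -0.02 ± 0.06 (adjusted p = 0.854) and 0.05 ± 0.06 (adjusted p = 0.594). Mcm10, a DNA replication initiation factor (chr2:4989714-5012791), had 0.466 and 0.507 in Abl.1 and 0.458 and 0.523 in Abl.2, with log2 ratios of -0.08 ± 0.11 and -0.06 ± 0.10. Neither gene differed between its columns beyond the library error, and no Abl library came near the kidney range. Psma5 had 0.549 and 0.533 in Abl.1 and 0.549 and 0.541 in Abl.2, a small excess of the maternal column (adjusted p = 0.0162 and 0.0105) that was lost when a library of the clone tested was left out: without Abl.1 replicate 1 the adjusted p in Abl.1 was 0.130, and without Abl.2 replicates 1 or 2 it was 0.129 or 0.0816 in Abl.2. Snu13, a protein of the U4 small nuclear ribonucleoprotein (chr15:82040525-82047598), had 0.439 and 0.451 in Abl.1 and 0.461 and 0.458 in Abl.2, with the paternal column higher in both (adjusted p = 0.00382 and 0.0145). In Abl.2 this call was lost without replicate 1 (adjusted p = 0.121) or replicate 2 (0.145). Hist1h4i, a histone H4 gene, stood at 0.597 and 0.530. Oaz1 had 0.541 and 0.514 in Abl.1, which was not called (adjusted p = 0.0964), and 0.384 and 0.366 in Abl.2, where the paternal column was higher (adjusted p = 6.38e-05).

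S100a11 was read from the paternal column in Abl. Its AIs were 0.044 and 0.093 in Abl.1 and 0.0 and 0.0 in Abl.2, against 0.924 to 0.942 pooled in kidney. The paternal column was higher in both clones (adjusted p = 1.56e-04 and 1.24e-05). Maternal counts in Abl.2 were 0 of 1766, which allows up to 0.170%, and in the second run of the same libraries 3 of 1700. Other tested genes within 5 Mb of S100a11 had median AIs of 0.508 and 0.501 in the clones. Pla2g7, a lipoprotein-associated phospholipase, had 0.267 and 0.077 in Abl.1 and 0.397 and 0.455 in Abl.2 over 28 and 135 pooled counts, and it was called in neither (adjusted p = 0.0826 and 0.636). Mcts2 had 33 and 45 counts and AIs of 0.667 and 0.844, also not called (adjusted p = 0.425 and 0.0525). In Abl.2 the maternal column of Mcts2 was called higher with the second run of the libraries (AI of 0.914 over 35 counts, adjusted p = 0.0452) and without Abl.1 replicate 2 (0.0487), a direction opposite to that of Impact and Zrsr1 there.

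**Figure D3:**
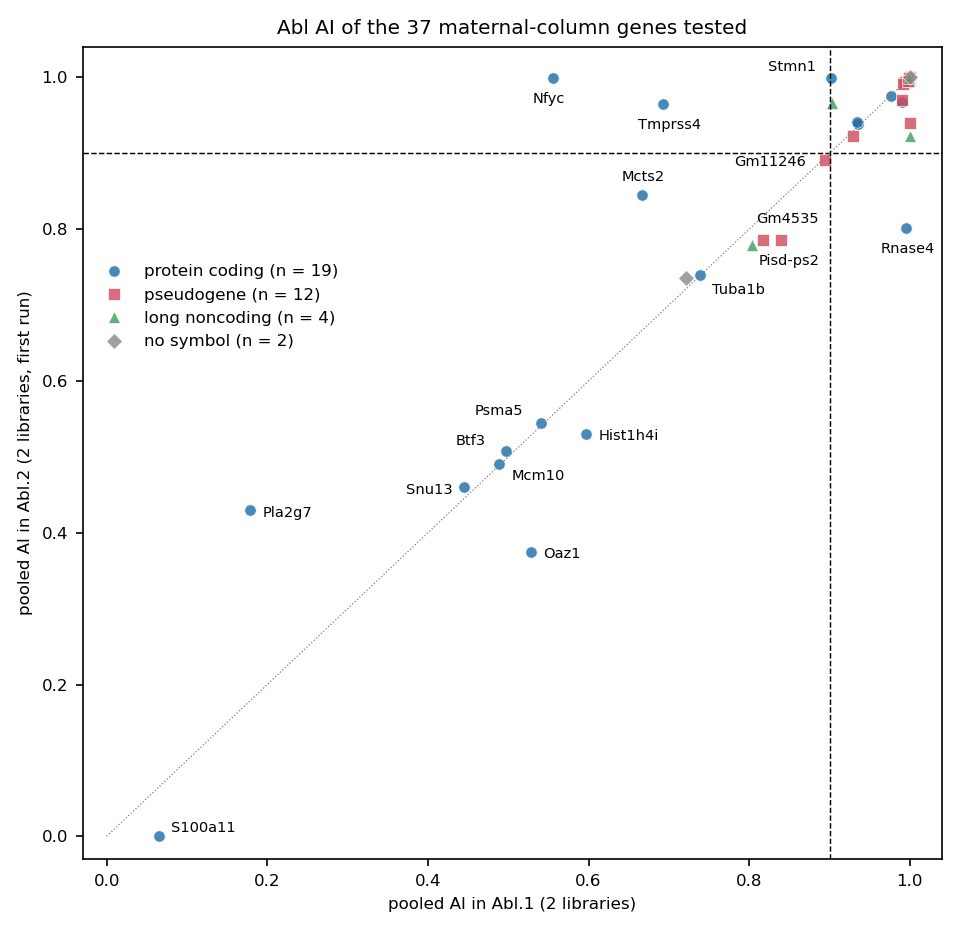
Pooled AI in Abl.2 against pooled AI in Abl.1 for the 37 genes tested, with 1 point per gene, marked by annotation class. Dashed lines mark 0.9 and the dotted line equal AI; 19 genes sit in the upper right corner, Btf3, Mcm10, Psma5 and Snu13 lie near 0.5 on the dotted line, and S100a11 is near 0.

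The AI differed between the clones in 6 of the 37 genes, against 27.1% of all genes tested. With the second run of the same Abl.2 libraries it differed in 10 of 38, against 27.3%. Of the 6 genes found with the first run, 4 had the higher AI in Abl.1 (12.5% of all genes) and 2 in Abl.2 (14.6%). Without Abl.2 replicate 2, 794 rather than 1226 of all genes were higher in Abl.1. Nfyc, a subunit of the CCAAT-binding factor NF-Y (chr4:120757438-120831572), had 0.602 and 0.531 in Abl.1 and 0.997 and 1.0 in Abl.2 (adjusted p = 9.14e-06). Stmn1, the microtubule regulator stathmin (chr4:134468320-134473843), had 0.913 and 0.887 in Abl.1 and 0.9995 and 0.9996 in Abl.2 (adjusted p = 9.74e-08). Both lie on chromosome 4, where most genes were read from the maternal column in Abl.2: the median AI of other tested genes within 5 Mb was 0.999 in Abl.2 around either gene, and 0.518 and 0.506 in Abl.1. The part of that region in these values was not tested. In Abl.1, where the region was balanced, Stmn1 stood at a pooled 0.902, and the pseudogene Gm11223, which matches it at 99.78% identity, had 0.020 over 7894 counts there. Gm11246 and Gm12454 also lie on chromosome 4, with regional medians of 0.9995 (over only 2 other genes) and 0.999 (over 65) in Abl.2. The AIs of Gm11246 and Gm12454 themselves in Abl.2 were 0.891 and 0.779.

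Of the genes higher in Abl.1, Oaz1 (adjusted p = 1.82e-04) lies on chromosome 10 among genes with a median AI of 0.337 in Abl.2 and 0.504 in Abl.1. Gm16124, an antisense gene, had 1.0 and 1.0 in Abl.1 (0 paternal of 226 counts, which allows up to 1.33%) and 0.954 and 0.888 in Abl.2 (adjusted p = 0.0222). This call was lost without Abl.1 replicate 1 (adjusted p = 0.0893) or Abl.2 replicate 2 (0.0641). Rnase4 had 0.9995 and 0.991 in Abl.1 and 0.717 and 0.887 in Abl.2 (adjusted p = 0.00260), with 100.1 and 4.87 CPM. Without Abl.2 replicate 1 the adjusted p for Rnase4 was 0.0684. Its excess of the maternal column in Abl.2 was called (adjusted p = 0.0249) but was lost without either library (0.0574 and 0.278), and in the second run of the same libraries the AIs were 0.583 and 0.469 and the adjusted p was 0.714. S100a11 was the fourth (adjusted p = 0.00120). The study's own proportion test, corrected by its quality correction constant (QCC), was used with Bonferroni adjustment, which is stricter than Benjamini-Hochberg. Under it the differences in S100a11 (unadjusted p = 5.86e-06, adjusted p = 0.0573) and Gm16124 (unadjusted p = 0.219) were not called.

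Levels in the Abl lines relative to kidney did not sort the genes in a simple way. The ratio of mean CPM in Abl to that in kidney had a median of 7.84 (0.633 to 42.0) in the 6 balanced genes and of 1.61 (0.0542 to 36.8) in the 19 that stayed at 0.9 or more, beside 1.57 over 7617 genes tested in both. Mcm10, at 42.0 times its kidney level, was balanced, whereas Stmn1 at 36.8, Gm4735 at 25.3 and Gm15427 at 21.8 times stayed high. These groups were defined by their Abl AI, so the ratios are a description.

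**Figure D4:**
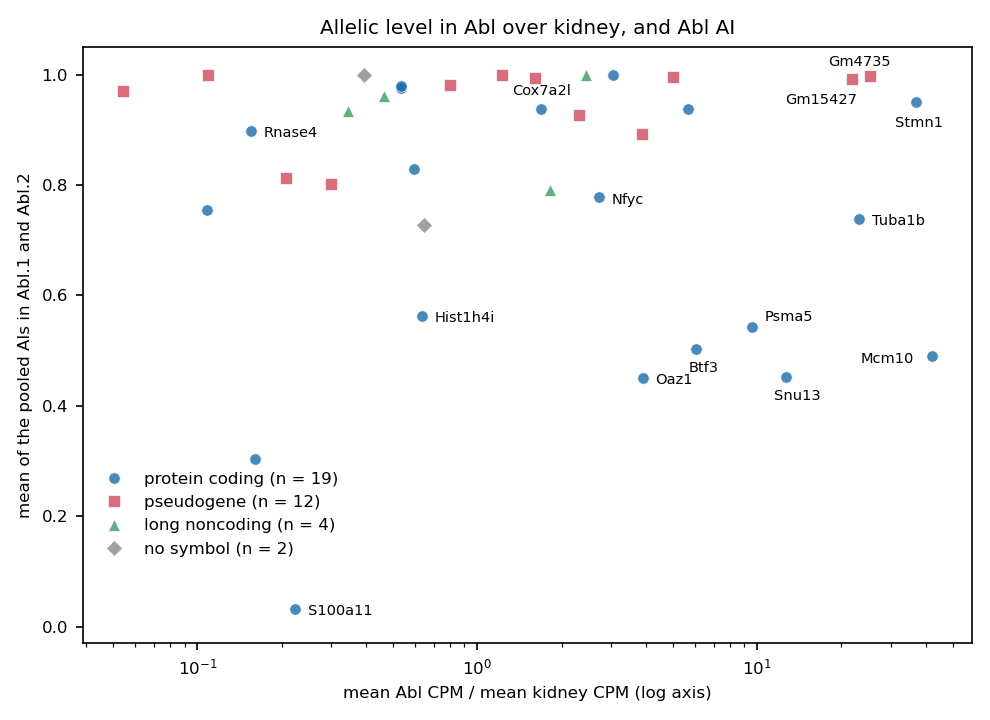
Mean pooled AI of both Abl clones against the ratio of mean CPM in Abl to that in kidney (log axis) for the 37 genes tested, 1 point per gene. Genes near an AI of 1 span ratios from 0.0542 to 36.8, and 5 of the 6 balanced genes have ratios from 3.91 to 42.0.

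The total allelic count, that is both columns together, was compared between kidney groups. The rule used it as a minimum of 100 pooled counts in each group, so shares are also given over the genes that met this minimum. SMARTseq10ng and NEBNext100ng differ in kit and in input at once, so kit and input cannot be told apart there. Fold changes are scaled with TMM factors, which differed by -0.332 on the log2 scale between these groups. A fitted rise is therefore larger, and a fitted fall smaller, than the ratio of the CPM values printed. Of 76 genes tested 62 differed (81.6%, against 80.2% of all genes and 80.6% of those that met the minimum). Of these 50 were higher in SMARTseq10ng (38.6% of 10127 genes, and 39.2% of the 9897 that met the minimum) and 12 were lower (41.6% and 41.4%). The median log2 fold was 0.84 over the 76, -0.06 over all genes and -0.05 over those that met the minimum. Pseudogenes and long noncoding genes as classes were also higher: the median was 0.95 in 18 pseudogenes among the 77 and 0.67 in all pseudogenes tested, and 1.21 and 0.82 in long noncoding genes. In the 42 coding genes it was 0.69, against -0.07 in all coding genes. A called difference of at least 2-fold was found in 35 of the 76 (46.1%), against 34.3% of all genes and 34.2% of those that met the minimum.

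Nat8b-ps (chr6:85932681-85933379) had the largest rise, from 2.20 over 3.44 to 4.83 CPM in NEBNext100ng and from 36.4 over 37.8 to 42.1 in SMARTseq10ng, a 13.9-fold difference (edgeR adjusted p = 3.17e-20). Gm2710 rose 8.0-fold, from 4.90 over 5.89 to 8.69 against 38.5 over 40.1 to 48.7 CPM (adjusted p = 1.23e-18). Spink8, a Kazal-type protease inhibitor (chr9:109812280-109826633), rose 5.20-fold, from 9.49 over 11.3 to 14.6 against 42.5 over 50.4 to 52.7 (adjusted p = 5.54e-18). The groups did not overlap in these 3 genes. Rnase4 rose 2.90-fold and Slc22a19 2.61-fold, whereas Slc22a22 did not pass the test (1.08-fold, adjusted p = 0.216). Downwards, Pisd-ps2 fell by 1.85 on the log2 scale, from 40.3 over 47.8 to 51.2 against 7.98 over 10.0 to 13.2 CPM (adjusted p = 7.01e-15). Nccrp1 fell by 1.76, from 13.9 over 17.7 to 19.8 against 2.5 over 3.60 to 6.10, and Gm15427 fell by 1.17, from 11.5 over 12.9 to 14.6 against 3.30 over 4.62 to 5.94 (adjusted p = 8.80e-10 and 2.63e-07). Gm2710 and Gm15427 thus moved opposite ways in level between these groups.

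Within the SMARTseq kit, 13 of 74 genes tested differed between 10 ng and 100 pg of input (17.6%), a share near that of all genes (19%, and 19.5% of those that met the minimum). Of the 74, 6 were higher at 100 pg (11.2% of 10020 genes, and 11.5% of those that met the minimum) and 7 were lower (7.75% and 8%), with a median log2 fold of 0.02, against 0.01 over all genes. Nat8f6 (chr6:85808024-85820954) alone of the 74 was called with a difference of at least 2-fold (1.35%, against 0.778% of all genes and 0.747% of those that met the minimum). It had 28.5 over 29.2 to 30.8 CPM at 10 ng and 3.49 over 4.38 to 5.90 at 100 pg, a 6.41-fold fall (log2 -2.68 ± 0.13, adjusted p = 4.09e-11). No library of Nat8f6 overlapped between these groups, and in NEBNext100ng it had 45.8 over 49.0 to 52.4. Nat8f6 is 98.46% identical to its relative Nat8f3, so this value carries the uncertainty of near-identical copies. Nat8f3 was lower at 100 pg too, with 3166 pooled counts in SMARTseq10ng and 1093 in SMARTseq100pg. How reads were divided between these 2 genes was not tested. ENSMUSG00000073738 was 1.73-fold lower and Stmn1 1.58-fold lower at 100 pg (adjusted p = 0.00113 and 9.96e-04). Got2-ps1 was 1.82-fold higher, Nccrp1 1.64-fold and Pisd-ps2 1.58-fold (adjusted p = 0.0181, 0.0255 and 0.00278). The call was lost for Got2-ps1 without SMARTseq10ng replicate 3 (adjusted p = 0.0502), and for Nccrp1 without any of SMARTseq10ng replicates 2, 4, 5 and 6 or SMARTseq100pg replicate 4 (0.0511 to 0.0696).

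**Figure D5:**
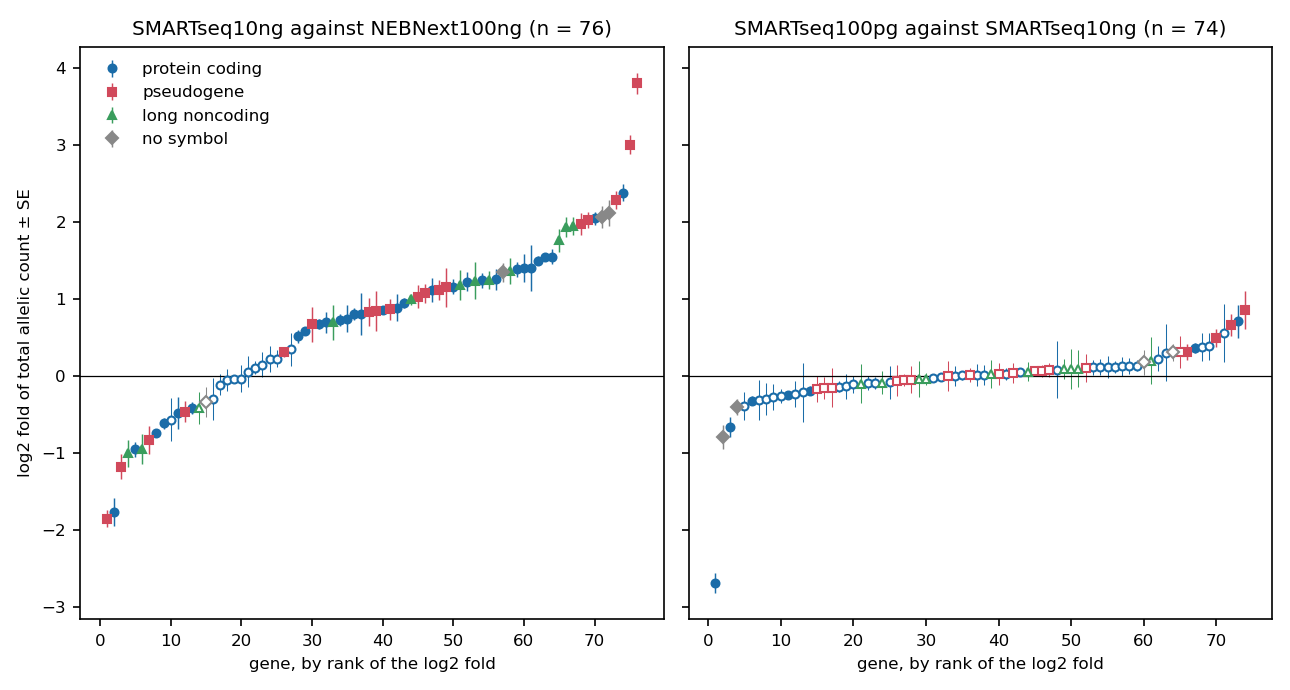
Fitted log2 fold of the total allelic count ± approximate SE between kidney groups, 1 point per gene in order of the fold, with open symbols where the gene was not called. In the left panel 50 of 76 genes are called above 0, led by the pseudogenes Nat8b-ps and Gm2710, and in the right panel the lowest point is Nat8f6 at -2.68.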

How the data were processed

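RNA-seq libraries of kidney (18) and of the Abl clones (6, of which 2 repeat the sequencing of Abl.2) were analysed. The authors built 1 pseudogenome per strain from GRCm38, mapped reads to both with STAR 2.5.4a and retained unique alignments, of which an equal number was drawn per library. Alleles were counted at SNPs with SAMtools and added up over the merged exons of a gene, without stretches that several genes share. The deposited tables hold these whole-number counts per allele, not normalized. The authors' AI fractions were not used. GATK is named in the submitters' processing notes.

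Samples were grouped by title. AI was taken as maternal over total counts. Maternal against paternal counts, and their ratio between the clones, were tested with edgeR 4.0.16 (R 4.3.3) by its quasi-likelihood test with a term for each library, in autosomal genes with at least 10 counts in each of the 4 Abl libraries. Total counts of 2 kidney groups were tested with TMM scaling in genes with at least 10 counts in each library. Adjustment was by Benjamini-Hochberg over all genes tested, at 0.05. Only for the proportion test corrected by QCC was it by Bonferroni. The scripts were tested on simulated data. Transcripts of GENCODE M21 were compared with BLAST+ 2.17.0, and the closest gene is the best match from another gene.

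Alternatives were DESeq2 1.42.0, other count minimums and scalings, the study's own proportion test corrected by QCC, the second run, a replicate block, other thresholds of the rule and each library left out. The genes and the lists were chosen with earlier results of these data known. Named were up to 30 tested genes by Abl count, the 15 with the highest kidney level, imprinted genes, those nearest the threshold, the 3 largest folds in each direction per kidney comparison and pairs within 500 kb. Names outside these, such as Arntl2, Mogat2, Gm11827, Mfap1b, Bglap3 and the list members, were chosen after their values were seen. Levels are CPM, counts scaled to a library total of 1000000. Matches of pseudogenes to ribosomal protein genes are not reported here. Depth is given with the samples, and intervals are 95% Wilson intervals.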

Additional observations from a re-analysis of the deposited data

Results flagged for a closer look

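For 93 groups of 6 kidney libraries, the values of the genes described above were searched for a single library far from the other 5, by the gap to the nearest library relative to the range. Such a library was found in 15 groups (16.1%), in 12 below the others and in 3 above. The limit used is passed by chance in about 1 in 20 groups of normal values. AI has a ceiling of 1, and in 4 of the 15 the other 5 libraries all stood at 1.0, so that rate is no guide for AI.

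In AI, BC018473 stood at 0.9796 in NEBNext100ng replicate 6 (288 maternal and 6 paternal counts) and at 0.9961 in SMARTseq100pg replicate 2, where the other 5 libraries had no paternal count. Cd63-ps stood at 0.9765 in NEBNext100ng replicate 2, below the others at 0.9843 to 0.9857. Gm16437 stood at 0.9782 in SMARTseq100pg replicate 1, Nat8f6 at 0.927 in NEBNext100ng replicate 4 and Slc22a22 at 0.9544 in SMARTseq100pg replicate 3. Ttr stood at 0.9653 in NEBNext100ng replicate 1 and at 0.9939 in SMARTseq10ng replicate 2. Pla2g7 stood at 0.814 in SMARTseq100pg replicate 3, from 70 maternal and 16 paternal counts. Mcts2 stood at 0.9863 in SMARTseq10ng replicate 2 and at 0.9552 in SMARTseq100pg replicate 4, from 1 and 3 paternal counts, and Nat8b-ps at 0.9667 in NEBNext100ng replicate 6, from 1 paternal count. Klk1b22 was above the others, at 0.9969 in NEBNext100ng replicate 6. In level, Gm2710 had 48.7 CPM in SMARTseq10ng replicate 2, above 38.5 to 41.6 in the others, and Nat8b-ps had 42.1 in SMARTseq10ng replicate 1, above 36.4 to 38.4.

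Differences in AI between the clones that passed the test (edgeR, adjusted p in the report) had these fitted differences in the log2 ratio of maternal to paternal counts, Abl.1 minus Abl.2. Oaz1 had 0.90 and Rnase4 had 5.67, both higher in Abl.1. Nfyc had -9.06 and Stmn1 had -7.96, both higher in Abl.2. Gm16124 had 6.24 and S100a11 had 8.92, and for both a clone had no count in a column, so these fitted values depend on the prior count and are no bounds.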

How the results depend on the processing

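The count of genes whose AI differed between the clones was 10 with the second run of Abl.2 in place of the first, against 6, and 49 genes met the rule at an AI of at least 0.95, against 77. The cause of the first difference was not tested, and the second follows from the threshold. The other counts over the 77 genes stayed within 1.5 times their value. With a library left out, 24 to 27 genes were called for the maternal column in Abl.1 and 23 to 29 in Abl.2, 6 in each case differed between clones, 61 to 64 and 10 to 15 differed in total count, 18 to 19 stood at 0.9 or more in both clones, and 72 to 76 met the rule. The proportion test corrected by QCC, with Bonferroni adjustment, gave 19, 24 and 4 of 37 genes for Abl.1, Abl.2 and their difference. It called 1013 of all genes (10.3%) for the maternal and 928 (9.48%) for the paternal column in Abl.1, against 1834 and 1665. For the maternal column in Abl.2 it called 1513 (15.5%), against 2009. As higher in Abl.1 than in Abl.2 it called 739 (7.55%) rather than 1226, and as higher in Abl.2 1044 (10.7%) rather than 1427. Test and adjustment changed together here, so their parts in these counts cannot be told apart. Without Abl.2 replicates 1 and 2, 1049 and 1009 of all genes were called for the paternal column in Abl.2, against 1781. Among 1413 values for single genes no direction reversed, 47 lost and 10 gained the call.

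Counts within genes in regions with a median AI from 0.3 to 0.7, an alternative chosen after seeing the data, were 25 of 35 in Abl.1, 22 of 31 in Abl.2 and 4 of 31 for the difference. The share of all genes is not given for this alternative. With the replicate number as a block the counts were 27, 26 and 6 of 37, 63 of 76 and 13 of 74. The block ended the call of Got2-ps1 (adjusted p = 0.0598) and of Rnase4 (0.0525) in Abl.2. Of all genes it called 17.3% and 19.5% for the maternal column in Abl.1 and Abl.2. It called 11.5% as higher in Abl.1 and 14% as higher in Abl.2. In total count 38.6% were higher and 41.4% lower in SMARTseq10ng than in NEBNext100ng, and 10.1% higher and 7.14% lower in SMARTseq100pg than in SMARTseq10ng. Libraries with the same number did not deviate together: the correlation was -0.0125 between the clones and -0.0165 to 0.0256 between kidney groups, and 1 of 6 and 2 of 6 libraries correlated best with their own number. They share only a number.

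Depth limits the AI of Mcts2, Pla2g7, Gm4535 and Got2-ps1 in Abl, with 28 to 137 counts per clone. Both kidney and Abl values describe 1 animal and 2 clones.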
